A study of Mus musculus with 4 samples.

Results

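The comparison described here is that of miR-142-/- with wild-type (WT) Qa2- CD4 thymocytes, and it rests on 2 of the 4 arrays of the study, chosen by their titles. The study sorted thymocytes of C57BL/6n mice aged 8 weeks that were WT or lacked miR-142, and hybridised total RNA of each sorted population to an Affymetrix Mouse Gene 1.0 ST array. Both Qa2- samples were CD8-depleted and then sorted as CD4+CD8-CD69+Qa2-. Thymi of 3 females and 2 males were pooled for WT, and of 1 female and 3 males for miR-142-/-. The other 2 arrays hold more mature Qa2+ cells of the same genotypes and are used here only for comparison. How the miR-142 allele was made, and whether its loss was limited to some cells, is not given in the sources used here. With 1 array for each genotype there is no replicate error and no test. Every difference below is a size, given as miR-142-/- minus WT on the log2 scale, where 1 unit is 2-fold.

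MicroRNAs are short RNAs that guide Argonaute proteins to messenger RNAs through base pairing of their 5′ end, the seed, and lower the stability and translation of those messengers. The Mir142 gene is active throughout the blood lineages, and both arms of its hairpin give mature microRNAs. CD69+ Qa2- CD4 cells are thymocytes that have recently passed positive selection and still reside in the thymic medulla. They later lose CD69, gain Qa2 and leave the thymus. The deleted products are shown first, because they are the RNAs that miR-142-/- cells lack. The mature sequences come from RefSeq (GRCm38.p6), with the seed, bases 2 to 8, in capitals. miR-142a-5p lies at chr11:87756867-87756887 and miR-142a-3p at chr11:87756903-87756925, both on the + strand.
mmu-miR-142a-5p: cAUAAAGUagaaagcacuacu
mmu-miR-142a-3p: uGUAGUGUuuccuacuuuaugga
The 2 seeds differ, so each arm pairs with its own set of messengers. The array reads the precursor locus and cannot tell the arms apart.

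Marker genes matched the titles of the arrays. Mir142 read 10.11 in WT and 5.29 in miR-142-/- cells. A value under log2 5.87 counts here as background, so Mir142 was at least 18.9-fold lower. This threshold is the 95th percentile of 1190 smell and pheromone receptor genes, which serve sensory neurons. For the miR-142-/- array 1 free-text label entry speaks of Qa2+ cells instead. Cd69, the marker that Qa2- cells carry, read 11.51 on this array, against 11.32 in WT Qa2- cells and 10.55 on each Qa2+ array. Cd4 read 12.64 and 12.47 in WT and miR-142-/- Qa2- cells, Cd3e 12.92 and 12.92, and Zbtb7b, the CD4 lineage factor, 10.34 and 10.73. Sex-linked transcripts did not match pools of both sexes: Xist read 12.67 in WT and 5.06 in miR-142-/- cells, and the Y-linked Eif2s3y 4.29 and 10.55. The genotypes therefore also differ in these transcripts, and the part of sex in any difference cannot be told apart from that of genotype. X- and Y-linked genes, Foxp3 among them, were left out.

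Most genes read alike on both arrays. Of 12236 autosomal genes that passed the background filter, 126 (1.03%) were at least 2-fold higher in miR-142-/- cells and 157 (1.28%) at least 2-fold lower. At 1.5-fold, the size used below to count members of gene lists, the shares of all genes were 3.11% higher and 3.73% lower. The median difference over all genes was 0.00 and the arrays correlated at 0.991 across probe sets, which are not independent replicates. Receptor genes differed with a standard deviation of 0.15, and 3 of 1190 were 1.5-fold apart. Such scatter among dim genes says nothing of how mice vary. Of the 126 higher genes 21 were at least 4-fold apart, and of the 157 lower genes 18. The 126 higher genes lay on 19 chromosomes.

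**Figure D1:**
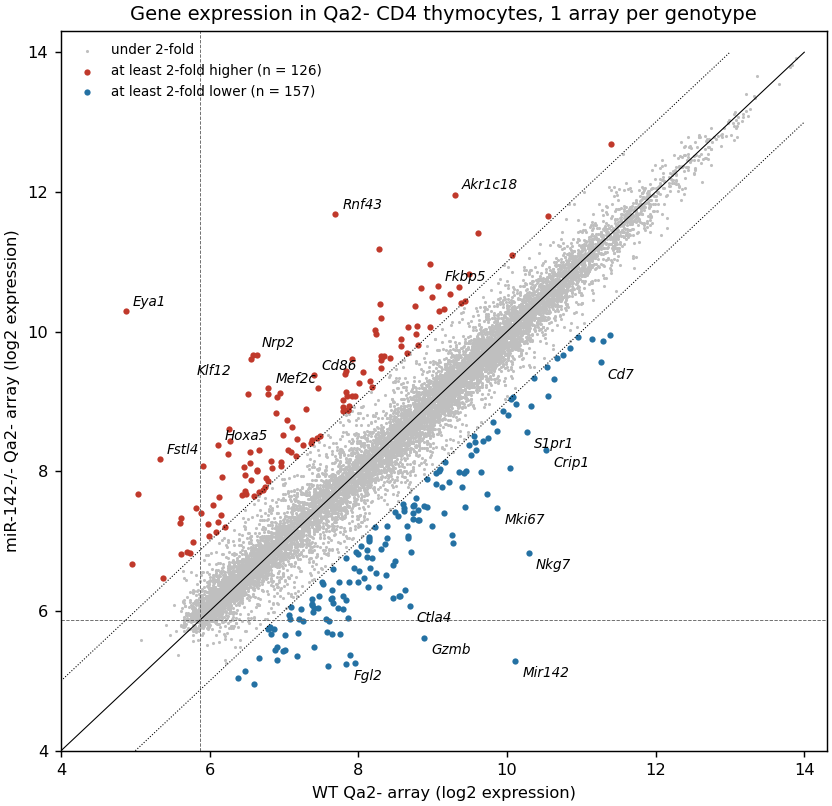
Each point is 1 of 12236 autosomal genes, with its log2 value on the WT Qa2- array (x axis) and on the miR-142-/- Qa2- array (y axis). Coloured points are at least 2-fold apart (126 higher, 157 lower), dotted lines mark 2-fold, and dashed lines mark the background threshold of 5.87. Eya1 and Mir142 lie farthest from the diagonal.

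The gene with the largest difference was Eya1, a phosphatase and co-activator needed to form many organs. It read 4.87 in WT cells, below the threshold, and 10.29 in miR-142-/- cells, so it was at least 21.5-fold higher. Eya1 belongs to a list of progenitor and developmental factors, genes that are normally used by stem cells, early thymic progenitors or embryonic tissues. Of the 30 measured members of this list 18 were above background, and 8 of these were at least 1.5-fold higher and 0 lower, with a median difference of 0.41. Eya1 passed the filter through the miR-142-/- arrays alone, so its place in the count follows in part from the filter. With no background filter the median was smaller, as given in a later section. Mef2c, a transcription factor of lymphoid progenitors, read 6.79 in WT and 9.19 in miR-142-/- cells (5.27-fold). Lmo2, a transcriptional adaptor of blood progenitors, read 7.09 and 8.27 (2.25-fold). The other 5 counted members were Hoxa genes. Tcf4, an E protein outside this list named after its values were seen, read 8.30 and 9.65.

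The Hoxa genes encode homeodomain factors that lie side by side on chromosome 6 and are active in blood stem and progenitor cells. Hoxa5 read 6.11 in WT and 8.37 in miR-142-/- cells (4.79-fold), Hoxa6 6.89 and 8.83 (3.84-fold), and Hoxa7 7.04 and 8.74 (3.25-fold). Hoxa3 and Hoxa9 were below the threshold in WT, at 5.60 and 5.70, and read 7.26 and 6.85 in miR-142-/- cells. The 5 genes were higher together, while Hoxa4 between them differed by 0.55, under 1.5-fold. Hoxa10, Hoxa11 and Hoxa13, at the other end of the cluster, lay below the threshold on both arrays, between 4.96 and 5.57. Outside the cluster, its neighbour Skap2, an adaptor of immune receptor signalling, read 7.46 and 9.19. Igf2bp3, an RNA-binding protein of fetal cells farther along the same chromosome, read 8.24 and 9.97. Genes between Igf2bp3 and Skap2 were mixed. Mpp6 differed by 0.65 and Osbpl3 by -0.68, while Cbx3 and Hnrnpa2b1 differed by -0.11 and 0.02. Hibadh, beyond the other end, differed by 0.06.

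**Figure D2:**
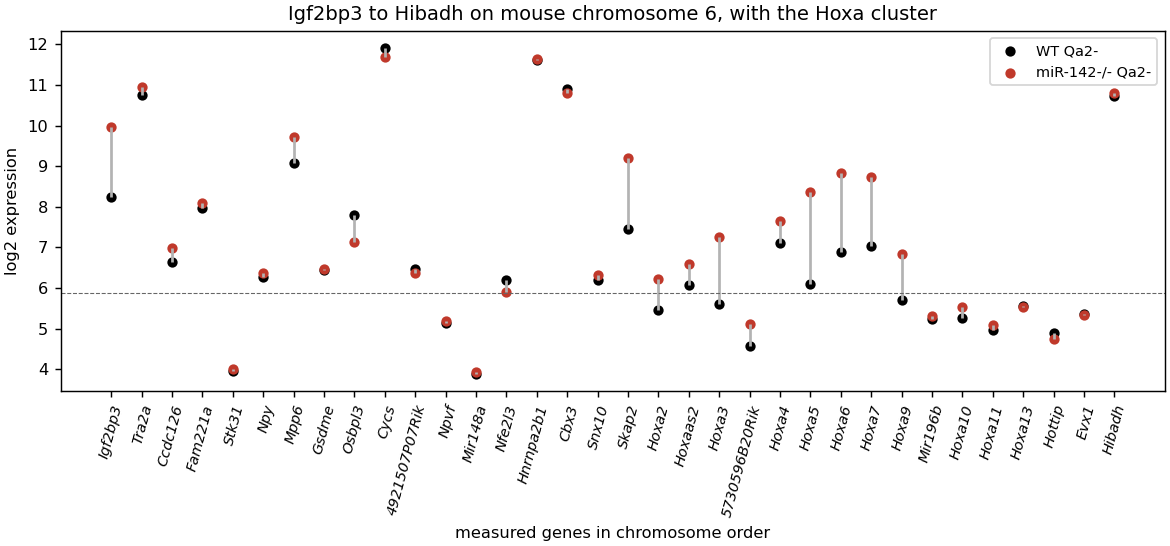
The log2 value (y axis) of 34 measured genes in chromosome order from Igf2bp3 to Hibadh (x axis), on the WT and miR-142-/- Qa2- arrays. The dashed line is the background threshold of 5.87. The miR-142-/- points stand above the WT points at Igf2bp3, Skap2 and the Hoxa genes from Hoxa3 to Hoxa9, and both lie below the threshold from Hoxa10 to Evx1.

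Other members of developmental pathways were among the highest. Rnf43, a ubiquitin ligase that removes Wnt receptors, read 7.69 in WT and 11.68 in miR-142-/- cells, 15.9-fold higher. Its relative Znrf3 differed by 0.69 and Ctnnb1, which encodes beta-catenin, by 0.63. Tle3, a corepressor, differed by -0.60. These were the 4 of 27 Wnt and Notch genes at least 1.5-fold apart, 3 higher and 1 lower, and the median of the list was 0.06. Rnf43 and Tspoap1, which read 6.51 and 9.11, also belong to the list of genes beside Mir142 on chromosome 11. Of 12 such genes above background these 2 were at least 1.5-fold higher and Mir142 itself lower, and the median was 0.03. Acvr1c, a receptor of the activin family, read 6.90 and 9.07. Its relatives, chosen after their values were seen, were mixed. Acvr1 read 6.74 and 7.78 and Bmpr2 8.99 and 10.49, while Acvr1b, Acvr2a, Acvr2b and Acvrl1 differed by -0.11, 0.29, 0.19 and -0.41.

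The transcription factor Klf12 read 6.56 in WT and 9.61 in miR-142-/- cells (8.27-fold), and Klf9 read 6.95 and 9.12 (4.49-fold). They were the 2 of 13 Krüppel-like factors at least 1.5-fold apart. Klf2, which drives egress genes, differed by -0.48. Klf9 is also a target of the glucocorticoid receptor. Of 24 genes known to respond to glucocorticoids or to FoxO factors, which act in quiescent cells, 6 were at least 1.5-fold higher and 0 lower, with a median of 0.18. Klf2 and the egress receptor S1pr1, which differed by -1.70, are not in this list. In Qa2+ cells 7 of its members were higher and 2 lower by the same measure. Fkbp5, a chaperone that limits the glucocorticoid receptor, read 9.07 and 10.65 (3.00-fold). Ddit4, an inhibitor of mTOR complex 1, read 9.61 and 11.41 (3.47-fold). The clock gene Per1 read 9.15 and 10.32 and Pik3ip1, an inhibitor of PI3-kinase, 10.02 and 10.92. Zfp36l2, which destabilises messenger RNAs, read 11.56 and 12.54. Rragd, a GTPase of amino acid sensing by mTOR named from the largest differences, read 6.54 and 8.27. Of 24 BCL-2 family and p53 response genes, the pro-apoptotic Bmf and Bbc3 were at least 1.5-fold higher, by 0.84 and 0.67, and 0 were lower.

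Nrp2, a semaphorin receptor, read 6.58 in WT and 9.67 in miR-142-/- cells (8.51-fold). Ephb6, an ephrin receptor, and Robo1, a Slit receptor, differed by 1.33 and 0.89. In that list of 18 guidance genes 3 were at least 1.5-fold higher, while the semaphorins Sema4a and Sema4f were lower by the same measure, at -0.81 and -0.75, and the median was 0.13. Nrn1, a surface protein of neurons, read 6.26 and 8.61, and Map2, a microtubule protein, 6.28 and 8.44. Ptpn13, a tyrosine phosphatase, read 6.24 and 8.25. Fstl4, a follistatin-like protein, was below the threshold in WT at 5.33 and read 8.17 in miR-142-/- cells, at least 4.93-fold higher. Lix1 read 5.04 and 7.67, at least 3.49-fold higher. Fstl4 and Lix1 passed the background filter through their miR-142-/- Qa2- value, so being higher follows in part from that filter. The membrane proteins Tmem176a and Tmem176b, neighbours on chromosome 6, had WT values of 6.63 and 8.28 and miR-142-/- values of 9.67 and 11.18. Akr1c18, which inactivates progesterone, read 9.30 and 11.96 (6.30-fold), and its neighbour Akr1c13 read 5.99 and 7.07. Cd86, a costimulatory ligand usually studied on antigen-presenting cells, read 7.40 and 9.38. The 8 myeloid and dendritic markers above background had a median of 0.12 and none was 1.5-fold apart.

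**Figure D3:**
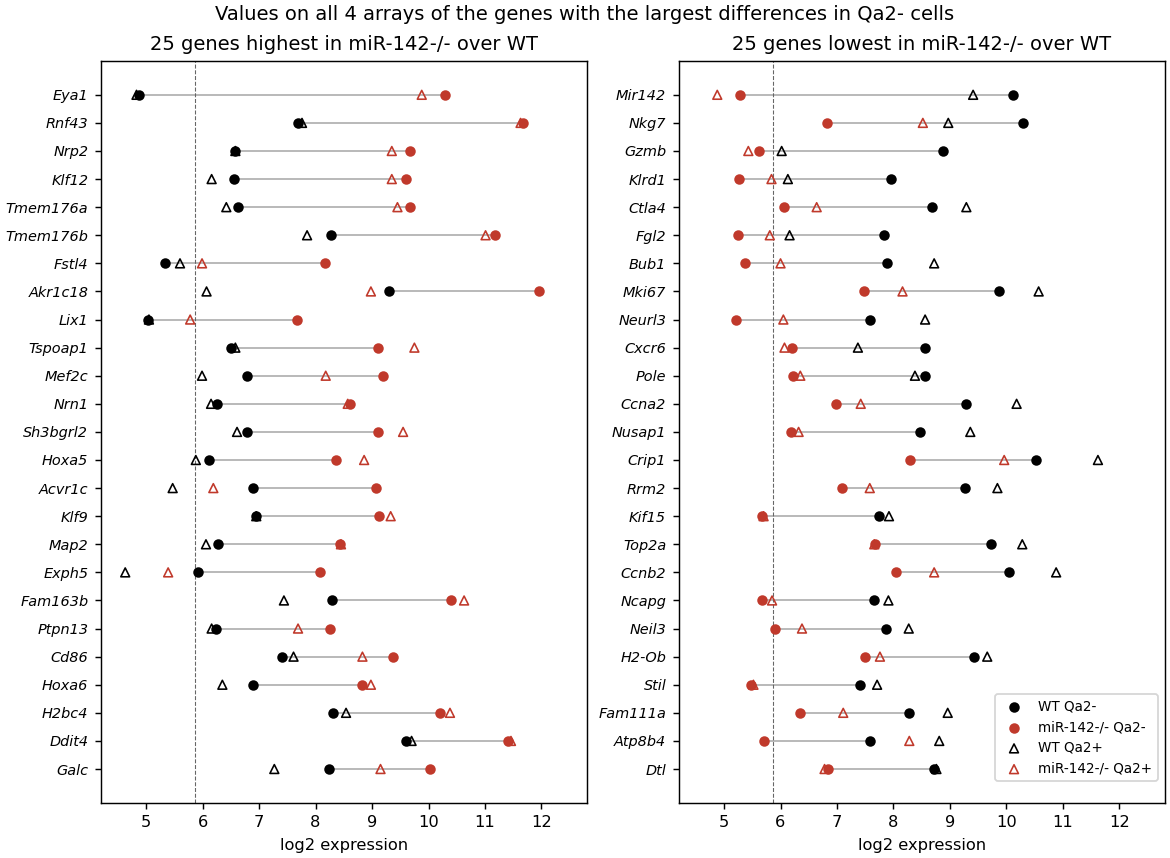
Log2 values (x axis) on all 4 arrays of the 25 genes highest (left) and the 25 lowest (right) in miR-142-/- relative to WT Qa2- cells. Filled circles are Qa2- and open triangles Qa2+ arrays, black for WT and red for miR-142-/-, and the dashed line is the threshold of 5.87. For Fstl4 and Lix1 on the left and Nkg7, Gzmb, Klrd1 and Fgl2 on the right the triangles lie closer together than the circles.

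Apart from Mir142, the lowest genes relative to WT encoded products of cytotoxic cells. Nkg7, a granule membrane protein, read 10.29 in WT and 6.83 in miR-142-/- cells, 11.1-fold lower. Gzmb, the protease granzyme B, read 8.88 and 5.62, at least 8.08-fold lower, and the lectin-like receptor Klrd1 read 7.96 and 5.26, at least 4.27-fold lower. In miR-142-/- cells Gzmb and Klrd1 were below the threshold. Of 29 measured cytotoxic granule and natural killer receptor genes 19 were above background by their mean over 4 arrays. Of these, 8 were at least 1.5-fold lower and 1 higher, Serpinb9, an inhibitor of granzyme B, at 0.71, and the median was -0.51. With the background set at the 99th percentile of receptor genes the count of lower members was 4. The chemokines Ccl5 and Xcl1 had WT values of 8.67 and 8.74 and miR-142-/- values of 7.07 and 7.32. Fasl, the death ligand, read 6.87 and 5.74. Gzmb, Klrd1 and Fasl were above the threshold on the WT arrays alone and brightest in WT Qa2- cells. They passed the mean through that array, so their place among the 8 follows in part from the filter and adds no support. A further 4 receptors of this list were not above background by that mean and were not counted. They passed the threshold in WT Qa2- cells alone, Klrb1c at 7.42, Klrc1 at 6.99, Klrk1 at 6.80 and Klrc2 at 6.65. In miR-142-/- Qa2- cells they read 4.41, 4.48, 4.60 and 4.73. Because passing in a Qa2- array was the reason to name them, their differences follow from that choice and add no support.

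Genes of innate-like and effector T cells, which share many products with cytotoxic cells, were lower as well. Of 14 innate-like genes that passed the background filter, 8 were lower by 1.5-fold or more, 1 was higher and the median was -0.68. At the 99th percentile background 5 were lower. Cxcr6, which guides T cells into tissues, read 8.56 in WT and 6.21 in miR-142-/- cells (5.12-fold lower). Tbx21, the T-bet factor, read 7.47 and 6.21, and Il18r1, an interleukin receptor chain, 7.99 and 6.81. Zbtb16, the factor that defines natural killer T cells, read 7.55 and 6.87. The member that was higher was Eomes, a T-box factor, at 5.90 and 6.56. Of 16 effector and memory genes 7 were lower, 1 was higher and the median was -0.57. Crip1 read 10.53 and 8.30, Lgals1, a galectin, 10.55 and 9.08, and the adhesion receptor Cd44 8.92 and 7.89. Fgl2, a secreted fibrinogen-like protein, read 7.84 and 5.24, at least 3.91-fold lower. Fgl2 passed the background filter through its WT value, so being lower follows in part from that filter.

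Markers of other cells were set beside these groups. The 11 CD8 single-positive markers were all above background, and 7 were at least 1.5-fold lower and 1 higher, with a median of -0.78. Their unlogged values summed to 8921 in WT and 4663 in miR-142-/- Qa2- cells. Cd8a itself read 7.53 and 7.33 and Cd8b1 9.97 and 9.24. Some of its members, Nkg7, Klrd1 and Ccl5 among them, are also in the cytotoxic list, and the CD8 lineage factor Runx3 differed by 0.04. For 11 natural killer cell markers the sums were 916 and 605. Klrb1c and Klrk1, which passed the threshold in WT Qa2- cells alone, are among the 11, so the gap follows in part from them. The 6 markers above background had a median of -0.11, with 1 at least 1.5-fold lower and 1 higher. The defining receptor Ncr1 was below the threshold on both arrays, at 4.23 and 4.29. Perforin, Prf1, read 7.36 and 6.84 and granzyme A, Gzma, 6.12 and 6.17. The part of such cells in the lower cytotoxic values was not tested. In sorted bulk samples, fewer cells of a type and less RNA per cell cannot be told apart. Sums for B cell markers were 1494 and 1449, for gamma-delta T cells 541 and 580 and for double-positive thymocytes 7885 and 7784. Of 12 measured B cell markers only 3 were above background, the brightest being Ralgps2 at 9.90 and 9.87. Of 5 measured gamma-delta markers 4 were above it. Such sums say little of how many of these cells were present. Outside the gamma-delta list, the T cell receptor gamma segment Trgv1, chosen after its values were seen, read 8.96 in WT and 10.97 in miR-142-/- Qa2- cells (4.03-fold higher). Of the 12 double-positive markers above background, Arpp21 and Aqp11 were at least 1.5-fold higher, by 1.48 and 0.66, and Cd8b1 lower. Dntt, the terminal transferase of that stage, differed by 0.47.

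Regulatory T cell genes were split. Of 20 above background 6 were at least 1.5-fold lower and 2 higher, and the median was -0.15. The inhibitory receptor Ctla4 read 8.69 in WT and 6.07 in miR-142-/- cells (6.11-fold lower). Itgae, the integrin CD103, read 7.46 and 6.04. The orphan receptor Gpr83 read 10.07 and 11.10 and Nt5e, the ecto-enzyme CD73, 8.58 and 9.89, both higher. Of 21 inhibitory and costimulatory receptors, Ctla4, Tigit and Cd226 were at least 1.5-fold lower, the last at 10.22 and 9.62, and 0 were higher, with a median of 0.08. Pdcd1, which encodes PD-1, differed by 0.39.

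Genes of cell division were the most numerous listed genes among those lower in miR-142-/- cells. The 4 lists of proliferation genes were added after seeing the data, so their large share follows in part from that choice. In these lists 142 members were compared, of which 84 were at least 1.5-fold lower and 0 higher. They supplied 50 of the 157 genes at least 2-fold lower, and 107 of the 157 lay outside these lists. For mitosis 38 of 43 genes were at least 1.5-fold lower with a median of -1.28, and for DNA replication 24 of 42 with a median of -0.76. For cell cycle regulators the count was 11 of 29 and for homologous recombination and Fanconi genes 11 of 28, each with a median of -0.34. Bub1, a checkpoint kinase of the spindle, read 7.89 in WT and 5.37 in miR-142-/- cells, and the proliferation marker Mki67 9.87 and 7.48. Pole, the leading-strand polymerase, read 8.55 and 6.22 and Rrm2, a ribonucleotide reductase subunit, 9.26 and 7.09. Of the regulators, E2f1, an activator of S phase genes, read 8.74 and 7.40, Ccne1, cyclin E1, 8.80 and 7.45, and Wee1, an inhibitor of mitotic entry, 8.12 and 6.77. Fancd2, of the Fanconi pathway, was below the threshold in miR-142-/- cells at 5.04 and read 6.38 in WT. The histone genes H2ac4 and H2bc3, read at 8.24 and 9.39 in WT, were 6.54 and 7.77 in miR-142-/- cells, while H2bc4 was higher, at 8.31 and 10.20. Probes of histone genes can cross-hybridise. Myc, a growth factor-responsive transcription factor, read 10.62 and 9.81.

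**Figure D4:**
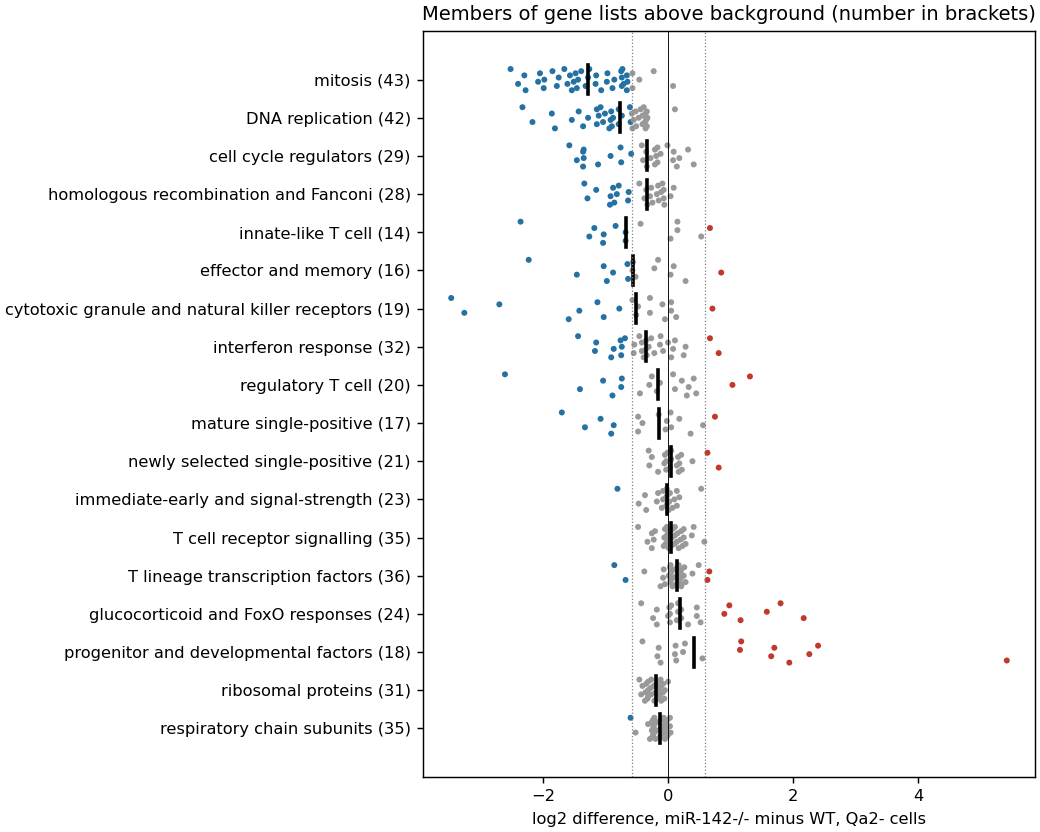
Each point is a gene above background, placed by its log2 difference (x axis, miR-142-/- minus WT in Qa2- cells) in the row of its list, with the number of members in brackets. Dotted lines mark 1.5-fold, coloured points lie past them, black bars are medians and height within a row has no meaning. Points of the mitosis and DNA replication rows lie mostly left of the dotted line, the developmental row holds Eya1 at 5.42, and the T cell receptor signalling row lies between the lines.

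Promoter windows of 300 bases around the start, from RefSeq (GRCm38.p6), were searched on both strands for letters that known regulators of these groups bind. The E2F letters TTTGGCGC or TTTCCCGC were in 12 of 41 replication promoters (29.3%), in 10.2% of the promoters of genes at least 2-fold lower, and in 2.86% of the promoters of all genes above background. The cell cycle homology letters TTTGAA, a site of the MuvB complex that times mitotic genes, were in 29 of 39 mitosis promoters (74.4%), in 34.0% of those of the lower genes and in 11.8% of all. In the promoters of genes at least 2-fold higher the shares were 2.27% and 14.4%. The lower genes include 26 of the mitosis list and 14 of the replication list, so their shares in part repeat those of the lists. The letters CCAAT were in 53.1% of lower and 34.1% of higher promoters and in 36.6% of all. A gene can have more than 1 window, and a match describes letters and not a bound site. The Dtl promoter is shown for the E2F letters and that of Mki67 for TTTGAA, in capitals. Each was the lowest gene of its list among those with a match. Bub1, the lowest mitosis gene, had a window without TTTGAA. Pole and Rrm2, which differed more than Dtl, had no window with the E2F letters. Dtl, a replication licensing ligase subunit, read 8.71 and 6.84. Its window is chr1:191575495-191575794 and that of Mki67 chr7:135716330-135716629, both on the - strand.
Dtl: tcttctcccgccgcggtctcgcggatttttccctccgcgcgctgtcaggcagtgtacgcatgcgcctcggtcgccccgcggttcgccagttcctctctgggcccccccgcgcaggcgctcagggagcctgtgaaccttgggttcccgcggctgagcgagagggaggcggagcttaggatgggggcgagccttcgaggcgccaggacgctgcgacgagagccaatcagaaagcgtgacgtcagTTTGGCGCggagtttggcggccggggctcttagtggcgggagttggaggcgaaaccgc
Mki67: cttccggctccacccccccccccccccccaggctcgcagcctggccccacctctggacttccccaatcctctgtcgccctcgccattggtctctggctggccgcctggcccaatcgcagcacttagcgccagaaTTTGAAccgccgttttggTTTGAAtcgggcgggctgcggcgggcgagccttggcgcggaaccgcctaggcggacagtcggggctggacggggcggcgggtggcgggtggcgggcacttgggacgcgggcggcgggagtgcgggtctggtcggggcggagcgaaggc
The Dtl window holds 1 match and the Mki67 window 2.

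Interferon response genes were lower in part. Of 32 above background 9 were at least 1.5-fold lower and 2 higher, and the median was -0.35. Ifit3, an antiviral protein, read 9.45 in WT and 8.01 in miR-142-/- cells, Rsad2, the enzyme viperin, 8.61 and 7.43, and Oas2, an RNA sensor, 10.12 and 8.97. The 2 higher members were the GTPases Gbp3 and Iigp1, by 0.67 and 0.81. Other interferon-inducible genes, chosen after their values were seen, also read lower: Ifi27l2a 10.32 and 8.94, Trim30d 9.22 and 7.85, and Ifi214 9.74 and 8.47. Letters of the interferon-stimulated response element, GAAA and again GAAA with 2 bases of any kind between, were in 13 of 29 promoters of the list (44.8%), in 6.80% of promoters of genes at least 2-fold lower, 3.79% of those higher and 2.99% of all. The Ifit3 window, chr19:34583279-34583578 on the + strand, is printed because Ifit3 differed most in the list, with its 2 matches in capitals in the reverse orientation.
Ifit3: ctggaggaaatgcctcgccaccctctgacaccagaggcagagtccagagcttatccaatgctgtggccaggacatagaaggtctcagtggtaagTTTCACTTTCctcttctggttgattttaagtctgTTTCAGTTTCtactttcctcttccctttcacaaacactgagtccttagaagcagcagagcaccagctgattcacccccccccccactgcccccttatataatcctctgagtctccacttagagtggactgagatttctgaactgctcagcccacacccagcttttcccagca

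Genes of thymocyte maturation showed a narrower pattern. Of 17 genes of mature single-positive cells above background 5 were at least 1.5-fold lower and 1 higher, Ly6d at 0.75, with a median of -0.15. S1pr1, the sphingosine receptor for leaving the thymus, read 10.27 in WT and 8.57 in miR-142-/- Qa2- cells (3.25-fold lower). The other 4 were Ms4a4c, Ms4a6b, Ms4a4b and Slfn1. Ms4a4c read 8.38 and 7.05 and Slfn1 10.85 and 9.77. Of 21 genes of newly selected cells Ccr8, a chemokine receptor of medullary cells, and Myb were at least 1.5-fold higher, by 0.81 and 0.63, and 0 were lower, with a median of 0.05. Among 19 egress and chemokine receptors 2 were higher and 3 lower. Cxcr4, a chemokine receptor of cortical thymocytes, read 9.08 and 10.30. Alcam, an adhesion molecule, was higher at 6.55 and 7.88, and Cd7, a surface receptor of T cells, lower at 11.26 and 9.56.

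Signalling of the T cell receptor showed no comparable difference. Of 35 components above background 0 were at least 1.5-fold higher or lower, from Txk at -0.48 to Cblb at 0.58. Txk is a kinase of the receptor and Cblb a ubiquitin ligase that restrains it. Of 23 immediate-early genes 1, Myc, was at least 1.5-fold lower, while Nr4a1 and Egr1, reporters of receptor signal strength, differed by 0.14 and -0.01. Of 20 NF-kB genes the adaptor Traf1 was lower, at 9.15 and 7.41. Of 28 cytokine receptor genes 1 was at least 1.5-fold higher, Il4ra at 0.68, and 3 lower, Il18r1, Il2rb and Il12rb2. Among 36 T lineage transcription factors Ets2 and Myb were higher, by 0.66 and 0.63, and Irf4 and Zbtb16 lower, by -0.86 and -0.68. The median of the list was 0.13.

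Genes reported elsewhere to be miR-142 targets mostly differed by less than 1.5-fold in this population. Of 20 above background 15 lay above 0 and 5 below, with a median of 0.23. At least 1.5-fold apart were 2 higher and 2 lower members, beside 3.11% and 3.73% of all genes. The 2 higher members were Arhgap35 and Adcy9, an adenylyl cyclase. Arhgap35 read 9.13 in WT and 10.04 in miR-142-/- cells, and Adcy9 7.39 and 8.11. The actin regulators Twf1 and Cfl2 had WT values of 10.29 and 9.79 and miR-142-/- values of 10.86 and 10.29, and the integrin Itgav 9.08 and 9.60. The 2 lower members, E2f7 and E2f8, at -0.92 and -1.58, are also E2F family repressors that belong with the division genes. Of 15 genes of the microRNA machinery 0 were 1.5-fold apart, between -0.13 and 0.37. Sites for the 2 seeds in messenger RNAs were not analysed here.

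Other microRNA genes differed less than Mir142. Of 297 measured 102 were above background, Mir142 was the 1 at least 2-fold apart, and at 1.5-fold 2 were higher and 3 lower, with Mir142 among the latter. For each of the other 4 loci 1 mature sequence is given with the seed in capitals, to show that these seeds differ from both seeds of miR-142a. The second arm, where RefSeq lists one, is not printed.
mmu-let-7e-5p: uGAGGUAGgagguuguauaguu
mmu-miR-568: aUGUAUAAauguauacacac
mmu-miR-18a-5p: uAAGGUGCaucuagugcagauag
mmu-miR-19b-3p: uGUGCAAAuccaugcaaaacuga
Mirlet7e read 6.46 in WT and 7.22 in miR-142-/- cells and Mir568 7.75 and 8.46. Mir18 read 7.09 and 6.21, and Mir19b-1 6.41 and 5.59. The last 2 lie in 1 cluster on chromosome 14, whose host transcript Mir17hg read 6.99 and 6.53. In Qa2+ cells they did not share the direction, with differences of 0.22 for Mir18 and 0.34 for Mir19b-1.

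Cytosolic ribosomal protein genes were slightly lower as a body: all 31 differed by 0 or less, from -0.46 for Rps7, with a median of -0.20, and 0 were 1.5-fold apart. Of 35 respiratory chain subunits 31 lay below 0, with a median of -0.13, and Ndufa4, at -0.60, was 1.5-fold lower. Glycolysis, with 16 genes and a median of -0.08, held 1 higher gene, Eno3, a muscle enolase, at 0.82. The heat shock and unfolded protein list had a median of -0.01.

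Most differences of Qa2- cells had the same sign in Qa2+ cells of the same pools. Of the 126 higher genes 85 were also at least 2-fold higher there, out of 170 such genes in Qa2+ cells (1.39% of all), and of the 157 lower genes 118 were at least 2-fold lower, out of 228 (1.86%). At 1.5-fold 117 and 142 shared the direction, with shares of 4.51% higher and 4.88% lower among all genes in Qa2+ cells. Both populations came from the same mice, so this does not measure the spread between mice. Eya1 read 4.83 and 9.88 in Qa2+ cells, Hoxa5 5.88 and 8.86, Ctla4 9.29 and 6.64 and Mki67 10.57 and 8.16. Several cytotoxic genes differed in size between the populations. In Qa2+ cells Nkg7 differed by -0.45, Gzmb by -0.59, Klrd1 by -0.29 and Xcl1 by -0.26. Of these, Gzmb, Klrd1 and Xcl1 were near the threshold there in WT, at 6.02, 6.13 and 6.08. Other cytotoxic genes stayed lower in Qa2+ cells, Ccl5 at -1.17 and Fasl at -0.90. In the whole cytotoxic list 3 members were lower there by 1.5-fold or more and 2 higher, with a median of -0.26. The counts in Qa2- cells were 8 and 1, with a median of -0.51. The 2 higher members were Serpinb9, at 0.71, and Ccl3, at 5.03 in WT and 7.49 in miR-142-/- Qa2+ cells. S1pr1 differed by -0.46 in Qa2+ cells, against -1.70 in Qa2- cells. Among the higher genes, Lix1 and Exph5, a Rab-binding protein, were below the threshold on both Qa2+ arrays, so no difference was measured there. Fstl4 and Acvr1c were below it in WT Qa2+ cells, at 5.60 and 5.47, and read 5.99 and 6.19 in miR-142-/- Qa2+ cells. Lix1, Exph5 and Fstl4 passed the background filter through their miR-142-/- Qa2- value, so a larger difference in Qa2- cells follows in part from that filter. Homer2, a scaffold protein, read 6.13 and 7.63 in WT and miR-142-/- Qa2- cells, and 6.51 and 6.66 in Qa2+ cells. These differences between populations were not tested. Of the genes at least 2-fold apart in Qa2- cells 3 had the opposite sign in Qa2+ cells, Dapl1 among the higher and AW112010 and Rrs1 among the lower.

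**Figure D5:**
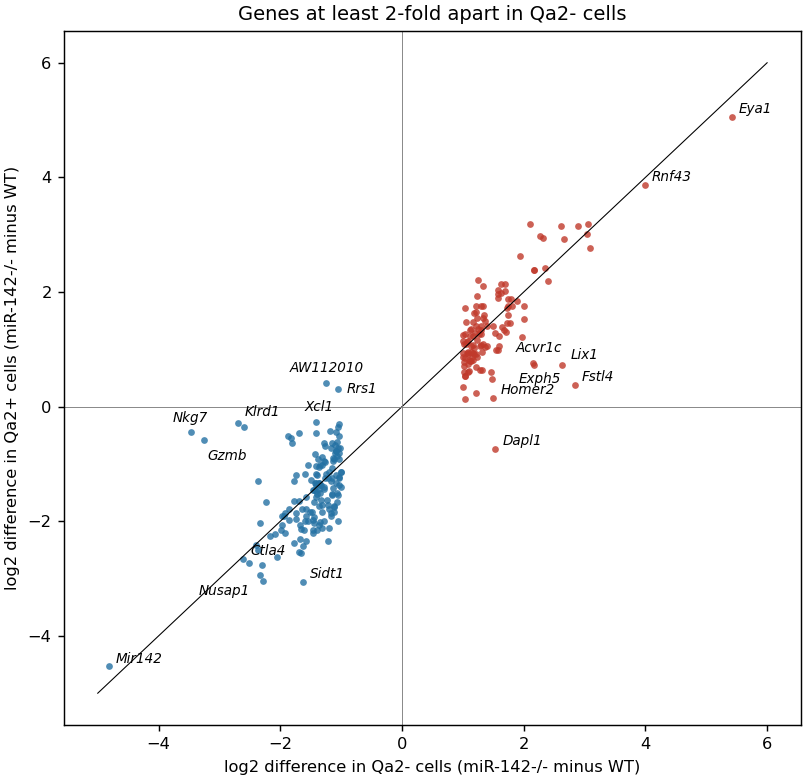
Each point is a gene at least 2-fold apart in Qa2- cells, with its log2 difference there (x axis) and in Qa2+ cells (y axis). The line marks equal differences, red points are higher and blue points lower in miR-142-/- Qa2- cells. Nkg7, Gzmb and Klrd1 lie near 0 on the y axis, while Eya1, Rnf43 and Mir142 lie near the line.

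Neighbouring genes sometimes stood together. Of 12207 pairs of adjacent genes above background, 11 had both members at least 2-fold higher and 2 both at least 2-fold lower. The higher pairs included 3 within the Hoxa cluster, the pairs Tmem176a with Tmem176b, Akr1c18 with Akr1c13, and Acvr1c with Acvr1. The lower pairs were Ifi214 with Ifi213 and H2bc3 with H2ac4. Members of such pairs can share probe sequence or regulation, which was not tested.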

How the data were processed

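Expression was measured in 4 sorted thymocyte samples, of which 2, the miR-142-/- and WT Qa2- arrays, are compared here and the other 2 set beside them. The authors deposited 1 log2 expression value for each probe set and array. Per the submitters' processing notes these came from RMA and Partek, whose versions are not given in the sources used here. The method RMA removes background and equalises the arrays' distributions, so a shift shared by all genes cannot be seen and differences of dim genes are compressed.

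Of 35557 probe sets 21789 had 1 gene in the platform annotation, 1621 several and 12147 none, and 21698 matched RefSeq (GRCm38.p6). Each of 19938 genes took its brightest probe set, which mattered for 999. Genes whose mean over 4 arrays exceeded log2 5.87, the 95th percentile of 1190 receptor genes, counted as above background (12581, less 345 X- and Y-linked). A fold is given as "at least" against that threshold where the dimmer value lies below it. The mean includes the 2 compared arrays, so a gene bright on 1 of them alone can pass the filter through that array. The median array value was 6.71 for WT and 6.74 for miR-142-/- cells. With 1 array a group no p-value was computed, and precision is limited by that number. Named genes are the 30 largest in each direction (leaving out predicted genes, smell and pheromone receptors and antigen receptor segments), list members with the largest differences or at least 1.5-fold apart, the genes that check the labels and genes at least 1.5-fold apart in opposite directions in the populations. Others are named as chosen after their values were seen, as are Trgv1, Mpp6, Osbpl3, Cbx3, Hnrnpa2b1, Hibadh, Homer2, AW112010, Rrs1 and the histone genes. A few list members with small differences are also given. The members and lists were chosen with earlier results of these data known. Counts used Python 3.11.15, numpy 2.4.6 and pandas 2.3.3. A simulation checked only that planted differences larger than 2-fold passed that cut and that small noise rarely did. It did not check the counts of lists, neighbours or promoters. Alternatives changed the scaling, the background filter, the probe set rule and the fold.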

Additional observations from a re-analysis of the deposited data

Results flagged for a closer look

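The genotype difference had opposite signs in the Qa2- and Qa2+ arrays, at least 1.5-fold in each, for Dapl1 and Cybrd1. Dapl1, a small death-associated protein homologue, differed by 1.53 in Qa2- cells (7.11 in WT and 8.64 in miR-142-/-) and by -0.74 in Qa2+ cells (9.72 and 8.98). Cybrd1, a ferric reductase, differed by 0.64 in Qa2- cells (6.84 and 7.48) and by -0.59 in Qa2+ cells (6.92 and 6.34). With 1 array a group these differences between populations were not tested.

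Probe sets that name no gene or several genes were outside every comparison and also held differences between the Qa2- arrays. Among 965 probe sets above background with several genes, 13 read higher by 2-fold or more in miR-142-/- cells and 3 lower. Among 7409 with no gene in the annotation, 49 read higher and 30 lower by the same measure. For comparison, 126 of the 12236 genes were higher and 157 lower.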

How the results depend on the processing

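The counts of genes at least 2-fold apart, 126 higher and 157 lower, stayed within 1.5 times under each other scaling, background filter and probe set rule tried, with ranges of 105 to 133 and 128 to 171. At 1.5-fold they were 380 and 456. With the background at the 99th percentile of receptor genes, fewer members were tested, and 4 cytotoxic genes (8 before) and 5 innate-like genes (8 before) were counted as lower. Under that filter 44 list medians moved by less than 0.15 and 4 by more, those of genes beside Mir142 (-0.15) and of natural killer (-0.51), myeloid (-0.11) and erythroid (-0.42) markers. With no background filter the median of developmental factors was 0.12, against 0.41. No named gene moved by 0.15 or more under the scalings tried, and 13 of 532 did when probe sets of a gene were averaged. Averaging can change only genes with more than 1 probe set. Most of the 532 have 1, so the 13 came from a much smaller number that could move. Leaving out the 4 proliferation lists, added after seeing the data, left 107 lower genes. The share of higher genes among those 2-fold apart was 44.5% as deposited and 41.0% after median centring. No paired analysis was possible because each group has 1 array, and no replicate could be left out. Limits are the 1 array a genotype, the pooled mice, and the unequal sex-linked transcripts. Genes near the threshold have compressed differences, so folds there are bounds.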

Other observations

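Ion channels and transporters, a list of 31 genes above background with a median of 0.00, held 4 at least 1.5-fold higher and 5 lower. Sidt1, a transmembrane protein related to RNA transporters, read 8.67 in WT and 7.04 in miR-142-/- Qa2- cells, and P2rx7, an ATP-gated channel, 9.04 and 7.82. The calcium channel Trpv2 and the amino acid transporter Slc7a5 differed by -0.77 and -0.70. Atp1b1, a subunit of the sodium pump, was higher by 0.95, as was P2rx4 by 0.59. Of 14 Gimap and Schlafen genes Slfn1, Gimap7 and Slfn8 were at least 1.5-fold lower and 0 higher, with a median of -0.05. Of 20 steroid and lipid enzymes Akr1c18 and Akr1c13 were higher and Idi1 and Fasn, of sterol and fatty acid synthesis, lower by 0.89 and 0.60.

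H2-Ob, a chain of the class II chaperone H2-O, read 9.43 in WT and 7.49 in miR-142-/- Qa2- cells, and its partner H2-Oa 8.80 and 8.22. The class I and class II presentation list, with 21 genes and a median of -0.06, held 1 gene at least 1.5-fold lower, H2-Oa, and 0 higher. H2-Ob is not a member of that list. Galc, a lysosomal enzyme, and Nrgn, a calmodulin-binding protein, were higher, at 8.23 and 10.02 and at 8.84 and 10.62. Neurl3, a ubiquitin ligase, was below the threshold in miR-142-/- cells at 5.22 and read 7.59 in WT, at least 3.29-fold lower.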
